A study of Mus musculus with 24 samples.

Results

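The 10 keratins Krt8, Krt7, Krt80, and Krt5 (type II) and Krt18, Krt19, Krt23, Krt20, Krt17, and Krt14 (type I) were taken by name from the 55421 mouse genes of the count table, to ask whether other type II keratins rose, or type I partners fell, in cells without Krt8. Alveolar type II epithelial cells (AEC2s) from Krt8+/+ mice (labelled WT) and from mice with a global deletion of Krt8 (Krt8-/-, labelled KO) were sequenced on the day of isolation (day 0) and at days 1, 3, and 7 of culture in 2D. The deletion was not restricted to AEC2s. Each of the 8 groups of genotype and day held 3 libraries, 1 for each of 3 biological replicates, and the labels give all 8 libraries of a replicate number the same batch, which makes 24 libraries. The ages and sexes of the mice, and whether cells of several mice were pooled, were not given for these samples in the labels.

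Keratins are the intermediate filament proteins of epithelial cells. A filament is built from pairs of a type I and a type II keratin, so that neither type forms filaments alone, and in simple epithelia Krt8 is the chief type II and Krt18 the chief type I partner. AEC2s make surfactant and can turn into the flat alveolar type I cells (AEC1s), and they pass through a transitional state known for high keratin expression. In mice without Krt8 the other type II keratins are the candidate partners of Krt18 and Krt19.

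In the GRCm38 annotation, Krt8 (ENSMUSG00000049382) lies on the minus strand at chr15:101996698-102004482 and Krt18 (ENSMUSG00000023043) on the plus strand at chr15:102028180-102032027. The pair is transcribed away from each other across a gap of 23697 bases. Between them 1 noncoding gene, Gm36026, is annotated, which overlaps Krt8 by 271 bases. The type II genes Krt7 (ENSMUSG00000023039), Krt80 (ENSMUSG00000037185), and Krt5 (ENSMUSG00000061527) lie on the same chromosome at gaps of 566384, 626535, and 283799 bases from Krt8, and the other type I members lie on chromosome 11. The stretches just upstream of the annotated starts of Krt8 (chr15:102004483-102004592, minus strand) and Krt18 (chr15:102027966-102028179, plus strand) are shown because both genes rose together at day 1, and that of Krt20 (chr11:99438154-99438403, minus strand) because its count was 0 in each day 0 library. They come from RefSeq (GRCm38.p6), which had windows for 7 of the 10 members, and capitals mark a TATAAA motif.
Krt8: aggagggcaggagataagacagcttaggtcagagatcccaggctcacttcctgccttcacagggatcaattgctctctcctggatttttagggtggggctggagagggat
Krt18: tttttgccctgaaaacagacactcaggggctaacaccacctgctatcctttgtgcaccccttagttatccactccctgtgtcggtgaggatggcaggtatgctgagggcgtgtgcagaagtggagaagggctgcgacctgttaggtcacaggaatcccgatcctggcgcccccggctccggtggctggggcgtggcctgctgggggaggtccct
Krt20: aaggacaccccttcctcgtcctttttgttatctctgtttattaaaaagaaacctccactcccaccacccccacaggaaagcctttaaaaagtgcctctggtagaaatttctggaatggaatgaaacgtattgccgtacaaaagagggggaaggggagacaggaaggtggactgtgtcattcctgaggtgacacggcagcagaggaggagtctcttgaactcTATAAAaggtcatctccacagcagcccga
Motifs were searched on both strands in windows from 250 bases before to 50 after each RefSeq start. The TATA box motif TATAAA stood in the windows of Krt20, with its first base at position -29 from the start, and of Krt8, where it overlapped the RefSeq start and lay downstream of the annotated start used above. It stood in 13.6% of the 32851 windows in the table. The GC box motif GGGCGG stood in the window of Krt7, and in 35.7% of all windows. The AP-1 motif TGANTCA stood in 0 of the 7 windows and in 7.81% of all.

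The loss of Krt8 reads was seen in each Krt8-/- library. In Krt8+/+ AECs of replicates 1, 2, and 3, Krt8 was counted at 485, 552, and 533 CPM (reads relative to library size, scaled with TMM factors) at day 0, at 3160, 3394, and 3071 at day 1, at 2599, 3866, and 3344 at day 3, and at 4041, 5092, and 2956 at day 7. The corresponding libraries of Krt8-/- AECs had 36.4, 31.1, and 21.2 CPM at day 0, 47.4, 28.5, and 38.6 at day 1, 29.9, 28.7, and 32.2 at day 3, and 29.8, 34.7, and 26.2 at day 7. The genotypes did not overlap on any day, and the Krt8-/- values stayed between 21.2 and 47.4 CPM while the Krt8+/+ level rose after day 0. The mean in Krt8-/- AECs was 5.65% of that in Krt8+/+ AECs at day 0, 1.19% at day 1, 0.926% at day 3, and 0.750% at day 7. Which part of Krt8 the null allele lacks was not given in the sources used here, so the remaining reads could not be placed within or outside it.

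In 1 edgeR quasi-likelihood model of the 24 libraries, with Benjamini-Hochberg adjustment over 18046 genes, the log2 difference of Krt8 (Krt8-/- minus Krt8+/+) was -4.15 (standard error 0.24, adjusted p = 2.7e-09) at day 0. It was -6.39 at day 1, -6.75 at day 3, and -7.06 at day 7 (adjusted p = 4.3e-12, 2.0e-12, and 1.1e-12, edgeR). The test of whether the genotype difference changed over the 4 days called Krt8 (edgeR adjusted p = 4.5e-04), with 0.00554% of genes called. That call was lost when replicate 1, 2, or 3 was left out (adjusted p = 0.949, 0.219, and 0.0935, edgeR). Since the deletion was chosen by the study, these values check the labels.

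The pseudogene Krt8-ps on chromosome 7 followed Krt8. Its mean fell from 141 ± 18.6 CPM (SD, n = 3) in Krt8+/+ AECs to 1.70 ± 0.524 CPM in Krt8-/- AECs at day 1, a log2 difference of -6.39 (edgeR adjusted p = 2.7e-10). Its annotated transcript matched that of Krt8 at 928 of 945 aligned bases (98.2%), so that reads of Krt8 could have been assigned to it. Its count was between 2.89% and 5.08% of that of Krt8 in Krt8+/+ libraries and between 1.89% and 7.06% in Krt8-/- libraries, the latter from 9 to 29 reads. The stretch with most differences among those of 120 bases in the coding part of Krt8 is shown from chr15:101998445-101998821 (minus strand, exons 5 and 6, with the intron left out) and from chr7:23357950-23358069 (plus strand, GRCm38). Capitals mark the 9 bases that differ.
Krt8: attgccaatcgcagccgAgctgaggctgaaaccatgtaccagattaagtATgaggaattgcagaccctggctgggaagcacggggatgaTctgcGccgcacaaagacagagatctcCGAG
Krt8-ps: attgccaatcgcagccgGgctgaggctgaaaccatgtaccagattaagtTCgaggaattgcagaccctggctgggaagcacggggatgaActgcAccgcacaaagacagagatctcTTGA

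Other members shared fewer 50-base words with other annotated transcripts. The share was 29.7% for Krt8, 13.9% for Krt14, 12.2% for Krt5, 3.99% for Krt17, and at most 2.74% for the other 6 members. Krt14 shared most with Krt16 and Krt5 with Krt6a, so the values of these low genes are less certain than those of Krt7, Krt18, and Krt19.

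**Figure D1:**
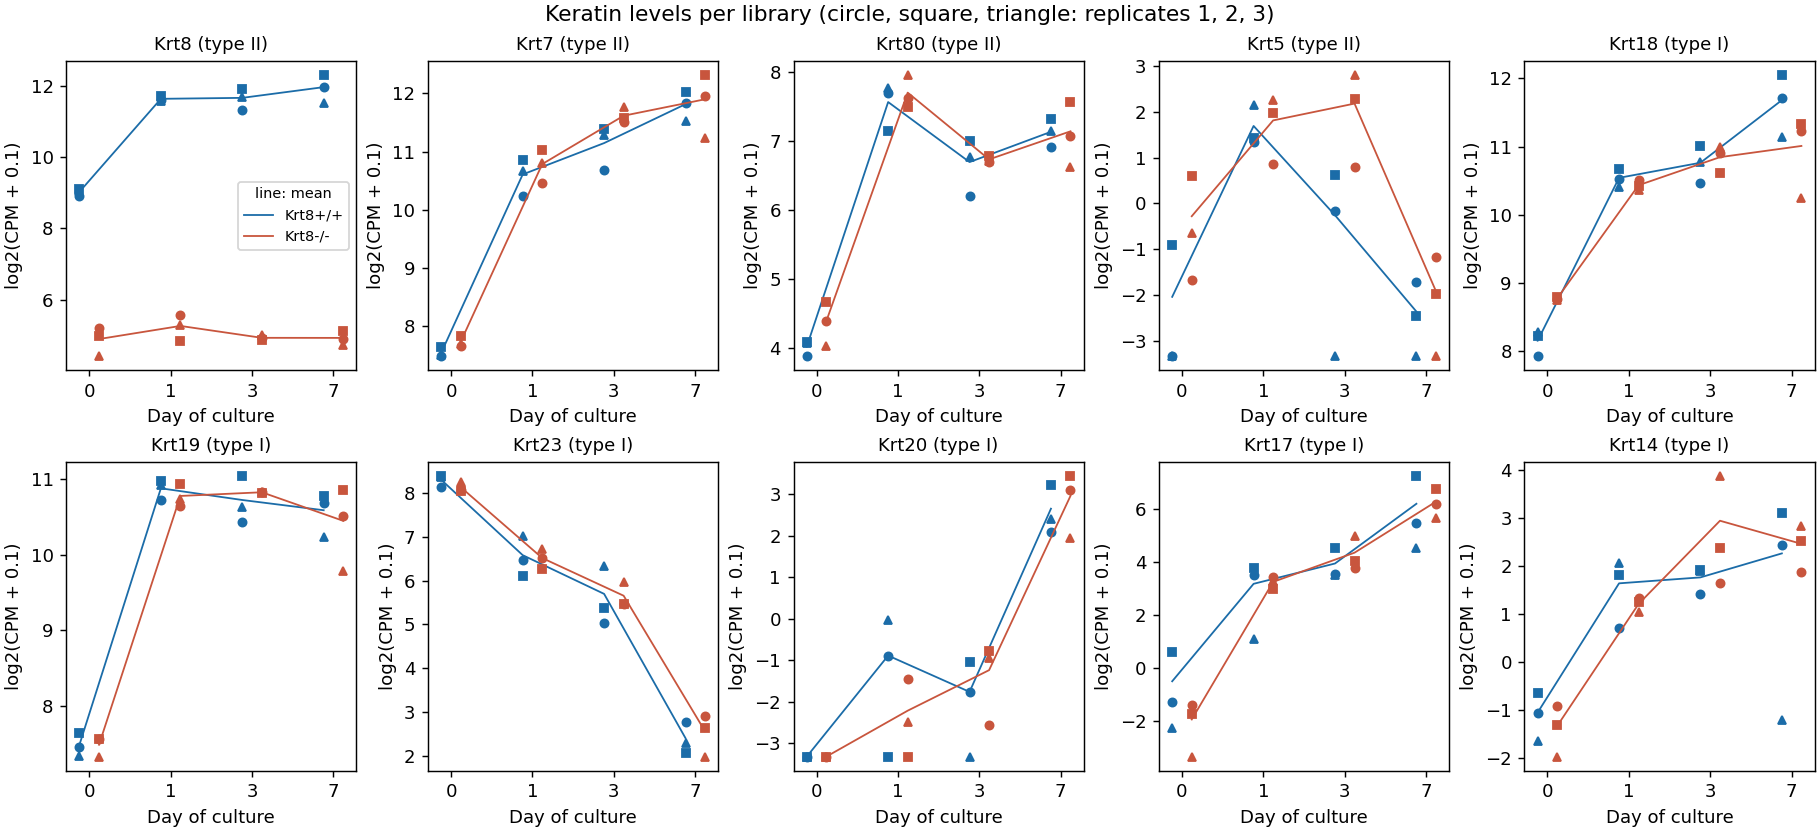
Level of each of the 10 keratins as log2(CPM + 0.1) against day of culture, with blue for Krt8+/+ and red for Krt8-/- AECs, points for the 24 libraries, and lines through the log2 of the mean CPM. Krt8 in Krt8-/- AECs stayed between 21.2 and 47.4 CPM, and of the other members only Krt18 at day 0, Krt7 at days 0 and 3, and Krt5 at day 3 had groups that did not overlap. These differences did not pass the adjusted test, and the share of all genes with such groups is not given here.

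Apart from Krt8, 0 of 9 members passed the threshold of 0.05 between genotypes on any day, over days 1 to 7 (weighted 0.167, 0.5, and 0.333), or in the test of the difference by day (edgeR). DESeq2 gave the same count in each of these comparisons. The share of all genes called was 0.0277% at day 0, 0.0166% on each of days 1, 3, and 7, and 0.0277% over days 1 to 7. At an unadjusted p under 0.05 there were Krt18 at day 0, 0 of the 9 at day 1, Krt5 at day 3, Krt18 at day 7, Krt5 over days 1 to 7, and Krt18 in the test by day. Over all genes the unadjusted share was 2.65%, 3.54%, 2.50%, 1.41%, 2.88%, and 1.49% in these comparisons. The share of all genes whose groups did not overlap is not given here, so overlap is stated below as a description only. The median log2 difference of the 9 members was 0.00, -0.07, 0.41, and 0.08 at days 0, 1, 3, and 7, and that of all genes was between -0.01 and 0.00. Krt20 had 0 reads at day 0 in both genotypes and could not be tested there. Its placeholder difference of 0 is the day 0 median.

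**Figure D2:**
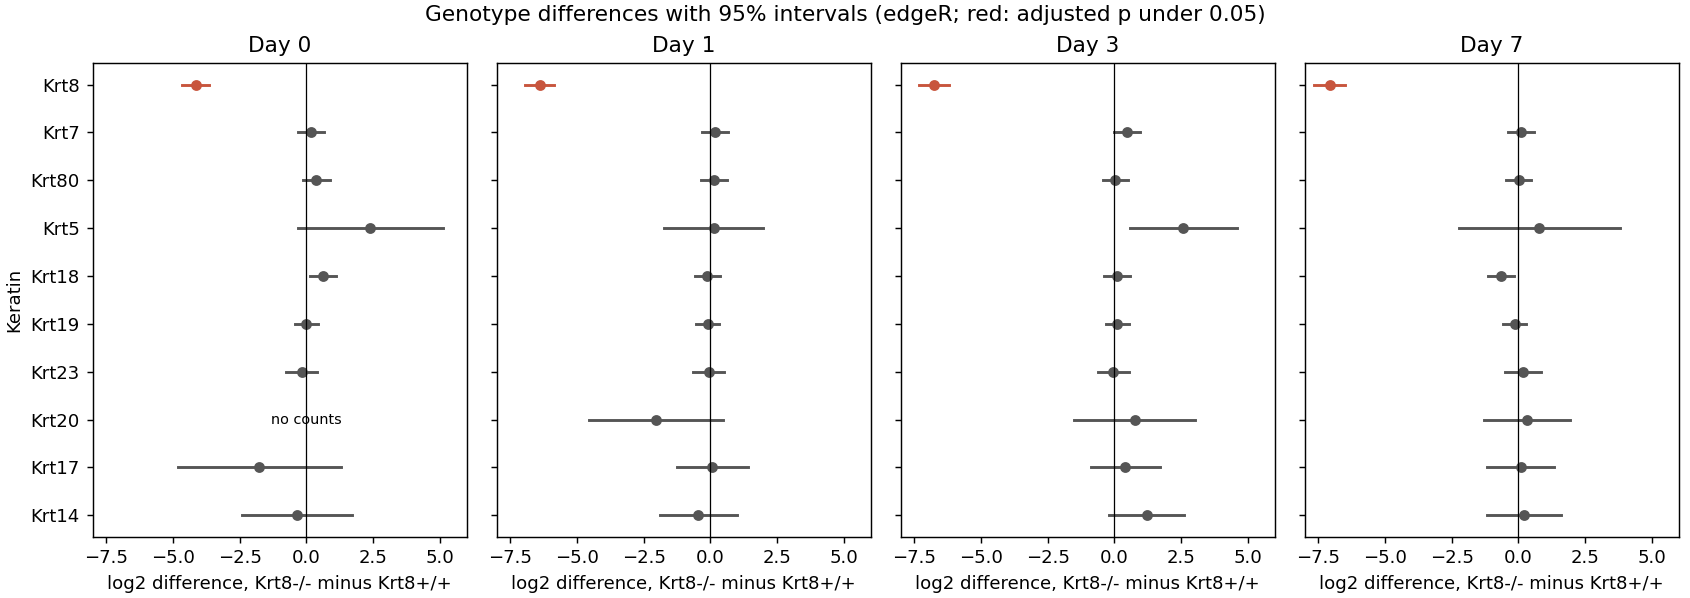
Log2 difference between genotypes for each keratin at days 0, 1, 3, and 7, with 95% intervals from edgeR; red marks adjusted p under 0.05, and Krt20 had no counts at day 0. The interval of Krt8 lay far left of 0 on each day, and those of Krt18 at days 0 and 7 and of Krt5 at day 3 left out 0 without passing the adjusted test.

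Krt7 was the most abundant type II member after Krt8 in Krt8+/+ AECs, and the most abundant in Krt8-/- AECs. In Krt8+/+ AECs of replicates 1, 2, and 3 it was counted at 179, 199, and 181 CPM at day 0, 1211, 1844, and 1627 at day 1, 1647, 2668, and 2485 at day 3, and 3660, 4190, and 2965 at day 7. The libraries of Krt8-/- AECs held 203, 228, and 208 CPM at day 0, 1413, 2096, and 1787 at day 1, 2908, 3040, and 3473 at day 3, and 3960, 5094, and 2408 at day 7. Within a replicate, Krt7 was higher in Krt8-/- AECs in 3 of 3 replicates at days 0, 1, and 3 and in 2 of 3 at day 7, and the groups did not overlap at days 0 and 3.

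These differences were at most 0.47 on the log2 scale. The log2 difference of Krt7 was 0.19 at day 0, 0.18 at day 1, 0.47 at day 3, and 0.08 at day 7, each with an edgeR adjusted p of 1 and a standard error of 0.23. Over days 1 to 7 it was 0.29, a 1.22-fold higher level (95% interval 0.994-fold to 1.51-fold, edgeR, unadjusted p = 0.0562, adjusted p = 1.00). A rise of this weighted mean above 1.51-fold therefore lay outside the interval. For day 3 alone the level was 1.39-fold (95% interval 0.991-fold to 1.94-fold, edgeR unadjusted p = 0.0561). A larger rise on that day, up to 1.94-fold, thus lay inside its interval.

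Krt80, a type II keratin of differentiating epithelia, was much less abundant, at 16.1 ± 1.26 CPM (SD, n = 3) at day 0 and 189 ± 41.8 at day 1 in Krt8+/+ AECs and 20.8 ± 4.58 and 208 ± 35.7 in Krt8-/- AECs. Its log2 difference was 0.37 at day 0, 0.14 at day 1, 0.04 at day 3, and 0.01 at day 7, with overlapping groups on each day. Over days 1 to 7 its level was 1.03-fold (95% interval 0.841-fold to 1.27-fold, edgeR adjusted p = 1.00).

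Krt5, the type II keratin of basal cells, was counted from few reads. Its levels in Krt8+/+ AECs at day 3 were 0.787, 1.43, and 0 CPM in replicates 1, 2, and 3, from 34 reads in all. Those in Krt8-/- AECs were 1.65, 4.76, and 6.83 CPM, from 200 reads, so the groups did not overlap. The log2 difference at day 3 was 2.58 (standard error 0.97, unadjusted p = 0.0145, edgeR adjusted p = 1), and over days 1 to 7 it was 1.57 (unadjusted p = 0.0361, edgeR adjusted p = 1.00). On day 1 the level was 3.12 ± 1.06 CPM in Krt8+/+ AECs and 3.40 ± 1.53 CPM in Krt8-/- AECs (SD, n = 3). At its peak in Krt8-/- AECs, Krt5 was at 2.01 CPM per kb of exons at day 3, against 446 CPM per kb for Krt7. The basal cell gene Trp63 had at most 30 reads over the 3 libraries of a group, with 0 in Krt8+/+ AECs at days 1 and 7 against 11 and 25 in Krt8-/- AECs. Its fitted log2 difference over days 1 to 7, which depends on the prior count where reads are 0, was 3.55 (unadjusted p = 0.00760, edgeR adjusted p = 1.00), and that of the basal keratin Krt15 was 3.09 (unadjusted p = 0.0252, edgeR adjusted p = 1.00). Their part in the Krt5 values was not tested. The summed level of 5 basal genes, Trp63 and Krt15 among them, overlapped between genotypes on each day. At day 0 the sum was between 882 and 1175 CPM over both genotypes, where Krt15 was at most 10.9 CPM. Other genes of the list made up most of the sum there, so its overlap does not measure basal cells. At day 3 the sum was between 4.15 and 6.35 CPM in Krt8+/+ and between 4.23 and 6.99 CPM in Krt8-/- AECs. Without replicate 3, the difference of Krt5 at day 3 was 1.53.

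Krt18, the usual partner of Krt8, had its highest ratio between genotypes at day 0 and its lowest at day 7. On day 0 it was counted at 244, 299, and 312 CPM in Krt8+/+ AECs and at 437, 445, and 433 CPM in Krt8-/- AECs of replicates 1, 2, and 3. The groups did not overlap, and the ratio of means was 1.54. On day 1 the values were 1478, 1628, and 1365 against 1464, 1370, and 1314 CPM, and at day 3 they were 1408, 2050, and 1754 against 1911, 1564, and 2041 CPM. On day 7 they were 3350, 4227, and 2261 against 2400, 2569, and 1210 CPM, lower in Krt8-/- AECs in 3 of 3 replicates with overlapping groups and a ratio of 0.628. The Krt8-/- library of replicate 3 stood apart at day 7. Its summed level of 6 fibroblast genes was 2978 CPM, against 902 and 797 in replicates 1 and 2, and that of 4 epithelial genes was 1229 CPM, against 1812 and 2195. The Krt8+/+ library of replicate 3 had 1805 and 1620 CPM, and the part of these values in the Krt18 difference was not tested.

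Neither difference of Krt18 passed the adjusted test. The log2 difference was 0.62 (standard error 0.23, unadjusted p = 0.0148, edgeR adjusted p = 1) at day 0, -0.11 at day 1, 0.08 at day 3, and -0.67 (standard error 0.23, unadjusted p = 0.00906, edgeR adjusted p = 1) at day 7. The test by day gave an unadjusted p of 0.00768 and an edgeR adjusted p of 1. Over days 1 to 7 the level was 0.870-fold (95% interval 0.706-fold to 1.07-fold, edgeR adjusted p = 1.00). Across the alternatives the day 0 value ranged from 0.52 to 0.70 and the day 7 value from -0.78 to -0.61, the latter without replicate 3.

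Other values moved with the day 0 difference of Krt18. The summed level of 6 club and ciliated cell genes was between 5821 and 11937 CPM in Krt8+/+ and between 14248 and 19614 CPM in Krt8-/- AECs at day 0, with Scgb1a1 at 3895 to 9192 and 11147 to 16356 CPM. The log2 difference of Scgb1a1 at day 0 was 1.11 (edgeR unadjusted p = 0.0201, adjusted p = 1). The summed level of 7 AEC1 genes at day 0 was between 2400 and 3002 CPM in Krt8+/+ and between 3206 and 3548 CPM in Krt8-/- AECs, while that of the AEC2 genes overlapped (208605 to 282537 and 233046 to 288484 CPM). Of the 7 AEC1 genes, Aqp5 was at 550 to 854 and 1117 to 1226 CPM in the same order, and Hopx at 35.1 to 47.9 and 52.7 to 82.4. The gap between genotypes in the AEC1 sum rested on Aqp5, and with Aqp5 left out the sums overlapped. Ager (1643 to 2051 and 1849 to 2181 CPM), Cav1, and Akap5 overlapped. Pdpn had a log2 difference of 1.08 at day 0 (edgeR unadjusted p = 0.0276) and did not pass the adjusted test. Values of Rtkn2, the last of the 7, are not given here. Aqp5 was also higher in Krt8-/- AECs at days 1 and 3 (log2 1.05 and 0.95), without passing the adjusted test. The part of club, ciliated, and AEC1 cells in the keratin values was not tested, and in bulk RNA fewer cells of a type and less RNA per cell cannot be told apart. On day 7 the club and ciliated sum was between 26.4 and 37.4 CPM in Krt8+/+ and between 17.4 and 36.3 CPM in Krt8-/- AECs.

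Krt19, another type I partner of simple epithelia, was close between genotypes. Its values were 175, 200, and 161 CPM in Krt8+/+ AECs and 188, 187, and 160 CPM in Krt8-/- AECs at day 0. They were 1696, 2018, and 1938 against 1602, 1958, and 1709 CPM at day 1, 1378, 2115, and 1583 against 1825, 1811, and 1815 CPM at day 3, and 1653, 1761, and 1207 against 1457, 1856, and 879 CPM at day 7. The groups overlapped on each day. Over days 1 to 7 its level was 0.991-fold (95% interval 0.822-fold to 1.20-fold, edgeR adjusted p = 1.00), so a fall of this weighted mean below 0.822-fold lay outside the interval. For day 7 alone the level was 0.907-fold, with a wider interval of 0.671-fold to 1.23-fold.

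**Figure D3:**
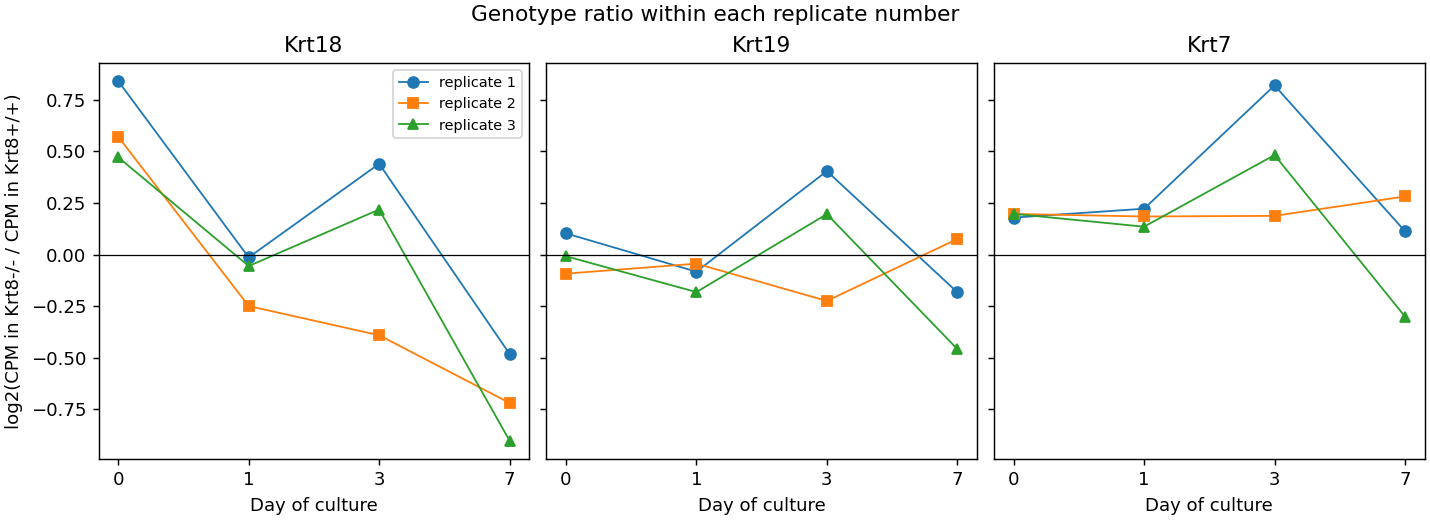
Log2 ratio of CPM in Krt8-/- to that in Krt8+/+ AECs within each of replicates 1, 2, and 3, against day of culture, for Krt18, Krt19, and Krt7, with a line at 0. For Krt18 the 3 replicates lay above 0 at day 0 and below 0 at day 7, whereas for Krt19 they lay on both sides of 0 at days 0, 3, and 7.

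Krt23, a type I keratin, fell in each step of the time course in both genotypes. It was counted at 317 ± 30.6 CPM (SD, n = 3) at day 0, 96.0 ± 30.4 at day 1, 51.9 ± 25.8 at day 3, and 5.17 ± 1.35 at day 7 in Krt8+/+ AECs. The values of Krt8-/- AECs were 282 ± 22.8, 91.7 ± 14.4, 50.4 ± 10.9, and 5.78 ± 1.82 CPM, with overlapping groups on each day and log2 differences between -0.17 and 0.16. Krt20, a type I keratin of gastrointestinal and urothelial cells, had 0 reads in all 6 libraries of day 0. It reached 4.15, 9.21, and 5.24 CPM in Krt8+/+ AECs and 8.52, 10.8, and 3.76 CPM in Krt8-/- AECs at day 7. Against a floor of 3 reads over the day 0 group, this was at least 68.0-fold higher in Krt8+/+ and at least 92.3-fold higher in Krt8-/- AECs. The floor covers counting error only.

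Krt17 and Krt14, type I keratins of basal and stressed epithelia, were low and variable. Krt17 at day 7 was counted at 43.7, 150, and 23.0 CPM in Krt8+/+ AECs and at 71.9, 107, and 50.2 CPM in Krt8-/- AECs, with overlapping groups and a log2 difference of 0.08 (95% interval -1.16 to 1.33). Krt14 at day 3 was counted at 2.56, 3.69, and 3.63 CPM in Krt8+/+ AECs and at 3.02, 5.12, and 14.6 CPM in Krt8-/- AECs. Its log2 difference was 1.20 (95% interval -0.19 to 2.59, edgeR adjusted p = 1), and replicate 3 held the highest value.

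To set type II against type I keratins, levels were divided by the exon length of each gene and summed over the members. In Krt8+/+ AECs the ratio of type II to type I was 0.596 ± 0.0195 (SD, n = 3) at day 0, 0.892 ± 0.0126 at day 1, 0.927 ± 0.0406 at day 3, and 0.824 ± 0.0395 at day 7. For Krt8-/- AECs it was 0.0841 ± 0.00914, 0.154 ± 0.0194, 0.208 ± 0.0168, and 0.260 ± 0.0190. The ratio was lower in Krt8-/- AECs in each replicate on each day. It contains Krt8 itself and was not tested. In Krt8+/+ AECs, Krt8 made up 90.2% ± 0.338 of the type II sum at day 0 and 79.1% ± 1.73 at day 7. The remaining Krt8 reads of Krt8-/- AECs are counted in their type II sum, of which they made up 30.6% ± 5.80 at day 0, 6.67% ± 2.62 at day 1, 3.23% ± 0.174 at day 3, and 2.82% ± 0.701 at day 7.

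The rise of Krt7, Krt80, and Krt5 together was set against the Krt8 lost, as a percent within each replicate. On the exon length it was 1.95%, 2.22%, and 1.50% in replicates 1, 2, and 3 at day 0, 1.67%, 2.46%, and 1.77% at day 1, and 14.0%, 2.63%, and 8.42% at day 3. On day 7 it was 2.19%, 5.16%, and -5.73%, so that replicate 3 had less, not more, of the other type II keratins in Krt8-/- AECs. This was the library with the high fibroblast and low epithelial sums given above, and its sum over all 10 keratins was 1727 CPM per kb, against 3111 and 3640 in replicates 1 and 2. At day 3, the Krt8+/+ library of replicate 1, behind the 14.0%, had an epithelial sum of 1792 CPM against 2967 and 2842, and Krt18, Krt19, and Krt80 were also higher in Krt8-/- AECs of that replicate (ratios 1.36, 1.32, and 1.42). The summed level of 6 mesothelial genes at day 3 was 891, 1283, and 952 CPM in Krt8+/+ and 1363, 1232, and 1385 CPM in Krt8-/- AECs. At day 7 it was 1571, 1890, and 1008 CPM in Krt8+/+ and 1696, 2468, and 904 CPM in Krt8-/- AECs. The part of these values in the rise was not tested. The summed level of Krt7, Krt80, and Krt5 was 1.16 ± 0.0257 times that of Krt8+/+ AECs at day 0 and 1.13 ± 0.0229 times at day 1. It was 1.42 ± 0.312 times at day 3 and 1.03 ± 0.209 times at day 7 (SD, n = 3 replicates).

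These sums depended on the length used. The exons of Krt7 cover 7049 bases over 5 annotated transcripts, of which the longest has 4094 bases, while its coding sequence has 1371 bases and that of Krt8 1470 bases. On the longest transcript, the mean rise at day 3 was 14.3% ± 9.81 of the Krt8 lost, and on the coding sequence 32.0% ± 22.0, against 8.36% ± 5.70 on the exon length (SD, n = 3). On the coding sequence the ratio of type II to type I at day 7 was 1.03 ± 0.0658 in Krt8-/- and 1.41 ± 0.0986 in Krt8+/+ AECs. The Krt8-/- value was below the Krt8+/+ value under each of the 3 lengths on each day, while the size of the gap was not fixed by these data.

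**Figure D4:**
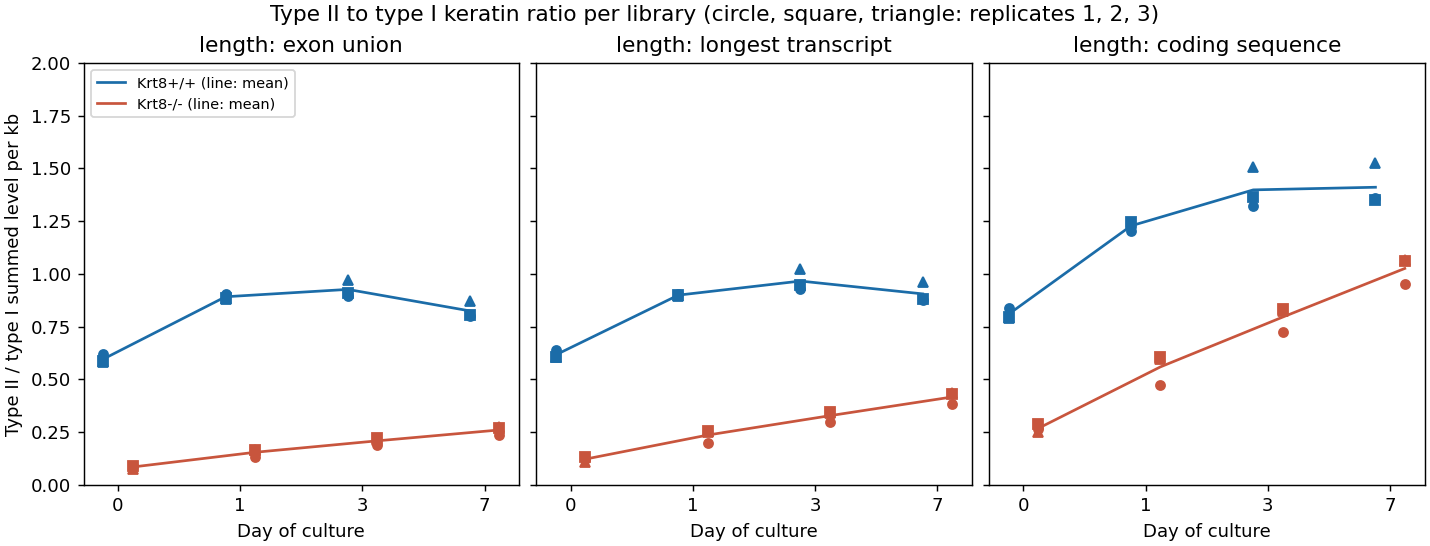
Ratio of the summed type II to the summed type I keratin level per kb against day of culture, in blue for Krt8+/+ and red for Krt8-/- AECs, with points for libraries, lines for means, and 1 panel for each choice of gene length. Red points lay below the blue points of the same day in every panel, and at day 7 the Krt8-/- mean was 0.260 on the exon length and 1.03 on the coding sequence.

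Along the time course, more members were called from day 0 to day 1 than in either later step, in both genotypes. From day 0 to day 1, 9 members rose and Krt23 fell in Krt8+/+ AECs, where 54.7% of all genes were called, 26.2% higher and 28.5% lower. Without replicate 1 or replicate 3, 9 of the 10 members were called there. The rise of Krt20 in Krt8+/+ AECs rested on 19 reads at day 1, with 6, 0, and 13 in replicates 1, 2, and 3. Of the members in Krt8-/- AECs, 6 rose and Krt23 fell, where 50.6% of genes were called, 23.7% higher and 26.9% lower. The 3 that were not called there were Krt8 itself (log2 0.37, edgeR adjusted p = 0.166), Krt5 (2.27, edgeR adjusted p = 0.0610, and past the threshold with DESeq2, with no filter, with the replicate number as a block, and from the libraries compared alone), and Krt20 with 4 reads at day 1. Krt8 passed the threshold without replicate 2 (edgeR adjusted p = 0.0465), and the call of Krt14 was lost without replicate 1 (0.0517) or replicate 2 (0.0702). Among the abundant members in Krt8+/+ AECs, the log2 rise was 2.62 for Krt8, 2.39 for Krt18, 3.06 for Krt7, and 3.40 for Krt19. The rise in Krt8-/- AECs was 1.66 for Krt18, 3.05 for Krt7, and 3.30 for Krt19.

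From day 1 to day 3, Krt23 and Krt80 fell in Krt8+/+ AECs (log2 -0.89 and -0.87, edgeR adjusted p = 0.0256 and 0.00794, 26.3% of genes called, 14.4% higher and 11.9% lower). The call of Krt23 was lost without replicate 1 (edgeR adjusted p = 0.178) or replicate 2 (0.127) and from the libraries compared alone (0.121), and that of Krt80 without replicate 1 (0.185) or replicate 3 (0.0696). In Krt8-/- AECs Krt23 and Krt80 fell (-0.86 and -0.97) and Krt7 rose (0.83, edgeR adjusted p = 0.0137), with 23.6% called, 13.4% higher and 10.2% lower. Here Krt23 was lost without replicate 1 (edgeR adjusted p = 0.162) or replicate 2 (0.142), and Krt80 without replicate 1 (0.0565) or replicate 3 (0.0754). The call of Krt7 was lost without replicate 1 (edgeR adjusted p = 0.122) or replicate 3 (0.0998). Krt7 in Krt8+/+ AECs had a log2 difference of 0.54 (edgeR adjusted p = 0.0926) and passed the threshold with the replicate number as a block (adjusted p = 0.0458). From day 3 to day 7, Krt18 (0.92), Krt17 (2.25), and Krt20 (4.96) rose and Krt23 fell in Krt8+/+ AECs, with 6.58% of genes called, 3.11% higher and 3.47% lower. Of these calls, Krt17 was lost without replicate 1 (edgeR adjusted p = 0.237) or replicate 2 (0.336) and from the libraries compared alone (0.0787), and Krt20 without replicate 1 (0.0697). Over the same days in Krt8-/- AECs, Krt20 (4.52) rose and Krt23 (-3.12) and Krt5 (-4.62) fell, with 10.5% called, 4.4% higher and 6.15% lower. The call of Krt5 was lost without replicate 2 (edgeR adjusted p = 0.129) or replicate 3 (0.0734), and that of Krt20 without replicate 1 (0.102). Krt17 in Krt8-/- AECs had a log2 difference of 1.92 (edgeR adjusted p = 0.0529) and passed the threshold with no filter, with the replicate block, without replicate 3, and from the libraries compared alone (adjusted p = 0.0101, 0.0414, 0.0147, and 0.0153). The change of Krt18 in this step was 0.16 in Krt8-/- AECs (edgeR adjusted p = 0.747), and its call in Krt8+/+ AECs was lost without replicate 1 (edgeR adjusted p = 0.309) or replicate 2 (0.230) and from the libraries compared alone (0.0602).

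Of 43 other keratins in fixed lists of both types, 42 were in the table and 11 passed the filter on low counts, 6 of type II and 5 of type I. Each of the 11 reached 1 CPM in at least 1 group. Between genotypes, 0 of the 11 were called on any day or over days 1 to 7 (edgeR). Krt15, a type I keratin of basal cells, passed an unadjusted p of 0.05 at day 0, and also over days 1 to 7. On day 0 it was counted at 1.59, 0.975, and 0.443 CPM in Krt8+/+ AECs and at 10.9, 8.10, and 7.65 CPM in Krt8-/- AECs, a log2 difference of 3.09 (standard error 1.10, edgeR adjusted p = 1). These groups did not overlap, and the club and ciliated genes given above moved with them.

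From day 0 to day 1, 9 of the 11 rose in Krt8+/+ and 5 in Krt8-/- AECs, where 26.2% and 23.7% of all genes were called higher. From day 1 to day 3, 7 and 5 fell, where 11.9% and 10.2% of all genes were called lower. Of the 11, Krt36, Krt13, Krt78, Krt4, and Krt76 reached 1 CPM only at day 1. Keeping genes by their highest group thus partly fixed a rise to day 1 and a fall after it. These counts are descriptions and cannot be weighed against the shares of all genes. Leaving out 1 replicate lost the rise of Krt10, Krt4, and Krt87 and the fall of Krt10, Krt4, Krt6a, Krt76, and Krt78 in Krt8+/+ AECs. In Krt8-/- AECs it lost the rise of Krt36 and the fall of Krt15, Krt36, and Krt78. Krt78 and Krt76 (type II) and Krt10 and Krt15 (type I) were among those that fell in both genotypes. Krt76 reached 8.04 ± 7.20 CPM (SD, n = 3) in Krt8+/+ and 8.06 ± 8.71 CPM in Krt8-/- AECs at day 1, and Krt78 reached 5.24 ± 3.74 and 4.52 ± 2.58 CPM. Krt6a reached 5.23 ± 2.97 and 5.18 ± 5.12 CPM, and Krt79 6.02 ± 3.76 and 3.89 ± 2.80 CPM. The others of the 11 were Krt4, Krt87, Krt13, Krt16, and Krt36, with group means of at most 2.24 CPM. Krt10 had 13.3 ± 6.01 and 12.7 ± 3.83 CPM at day 1.

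Of 16 other intermediate filament genes, 13 passed the filter, and 0 were called between genotypes on any day (edgeR), with 0 at an unadjusted p under 0.05. The 4 most abundant were the nuclear lamins Lmna and Lmnb1, vimentin (Vim), the filament of mesenchymal cells, and nestin (Nes). Vim was at 26.1 ± 17.9 CPM at day 0 and 633 ± 379 at day 7 in Krt8+/+ AECs and at 21.6 ± 11.6 and 649 ± 476 CPM in Krt8-/- AECs (SD, n = 3). Nes was at 0.396 ± 0.595 and 251 ± 23.0 CPM and at 0.432 ± 0.370 and 302 ± 24.4 CPM. Lmna at day 3 was at 701 ± 14.7 and 782 ± 33.4 CPM, and Lmnb1 at 81.1 ± 16.7 and 67.5 ± 22.5 CPM. The summed level of fibroblast genes at day 7 was between 870 and 1805 CPM in Krt8+/+ and between 797 and 2978 CPM in Krt8-/- AECs, and its part in the Vim values was not tested.

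The genes whose log2 CPM followed Krt8 most closely over the 12 Krt8+/+ libraries were F3, Mpzl3, Trim16, Slc4a11, and Sfn, with Pearson's r of 0.988 to 0.991. Over the 24 libraries, Krt18 was followed most closely by Prss22, Sprr1a, Krt7, Anxa1, and Fgd3 (r of 0.962 to 0.970), and Krt19 by AC124518.1, Mboat1, Syt8, Slc25a24, and Cldn4 (0.986 to 0.989). The points share libraries and the large step from day 0 to day 1, so these are descriptions. By Spearman's rho, 1 of the 5 genes stayed among the first 5 for Krt8, 1 for Krt18, and 0 for Krt19.

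The total count per library was between 10184439 and 19483386. The sexes were not balanced in replicate 1, where Y-linked genes summed to 0.127 CPM in the Krt8+/+ and 191 CPM in the Krt8-/- library at day 0, while in replicates 2 and 3 the genotypes matched. A gene of X inactivation was at 79.5 CPM in the Krt8+/+ and 11.3 CPM in the Krt8-/- library of replicate 1 at day 0. The Krt8-/- library of replicate 3 had 2.24 CPM. Whether the Krt8-/- sample of replicate 1 held cells of both sexes was not tested. Without replicate 1, the log2 difference of Krt18 was 0.52 at day 0 and -0.78 at day 7, and that of Krt7 at day 3 was 0.34.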

How the data were processed

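RNA was extracted with the RNeasy Micro kit from alveolar epithelial cells of 24 samples. The deposited table holds whole-number read counts per Ensembl gene, made by the authors, whose submitters' processing notes name cutadapt 2.3, STAR 2.7.8a, RSEM 1.3.3, and the build GRCm38 with no settings; whether the counts are rounded RSEM estimates is not given in the sources used here. Of 55421 identifiers, 55154 had a symbol, and 5 reporter rows held 0 counts. Genes that passed filterByExpr (min.count 10, min.total.count 15) were fitted in 1 quasi-likelihood model of the 8 groups with edgeR 4.0.16 (R 4.3.3, TMM, 16 residual degrees of freedom). DESeq2 1.42.0 served as an alternative. Levels are CPM, divided by exon length where genes are compared. The scripts were tested on simulated data. The 10 keratins and all lists were chosen with earlier results of these data known. Named were the 10 members, other keratins with a group mean of at least 1 CPM, the 4 most abundant other filament genes, and the 5 genes most correlated with Krt8, Krt18, and Krt19. Replicate numbers pair the samples, since the labels give each number 1 batch; correlations of deviations within a number were between -0.03 and 0.55. Whether replicates came from separate mice is not stated beyond the label biological replicate, and p-values measure the spread between these samples.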

Additional observations from a re-analysis of the deposited data

Results flagged for a closer look

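The genotype difference of Krt8 changed over the days (edgeR adjusted p = 0.00045 in the 3 degree of freedom test), as the Krt8+/+ level rose in culture and the Krt8-/- level stayed low. The ratio of Krt18 in Krt8-/- to Krt8+/+ AECs was 1.54 on day 0, with each of 3 replicates higher, 0.928 on day 1 and 0.628 on day 7, with each of 3 replicates lower on both days. The test of this change over days gave an edgeR adjusted p of 1 for Krt18, so the opposite directions did not pass the test of the difference.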

How the results depend on the processing

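Krt8 was called between genotypes on each day under every alternative run, and 0 of the other 9 members were. The number of genes called between genotypes at day 0 was 9 with DESeq2, 10 with no filter on low counts, and 2 to 5 without 1 replicate, against 5. On day 1 it was 5, 6, and 2 to 5, against 3. On day 3 it was 8 with DESeq2 and 3 to 5 without 1 replicate, against 3, and at day 7 it was 2 to 5 without 1 replicate, against 3. Over days 1 to 7 it was 17 with DESeq2, 11 with no filter, and 9 with the replicate block, against 5. For the test by day it was 3 with DESeq2, 2 with no filter, and 0 without 1 replicate, members included, against 1. From day 1 to day 3 in Krt8+/+ AECs, 2879 genes and 1 member were called from the libraries compared alone, and 2614 to 3085 genes and 0 to 1 members without 1 replicate, against 4740 and 2. From day 3 to day 7, 2 members were called from the libraries compared alone, and 325 to 572 genes and 1 to 4 members without 1 replicate, against 1188 and 4. In Krt8-/- AECs, leaving out 1 replicate gave 1842 to 2691 genes and 0 to 2 members from day 1 to day 3, against 4252 and 3, and 834 to 969 genes from day 3 to day 7, against 1903. Fewer samples entered these fits. Pairing by the replicate block also put Krt7 from day 3 to day 7 in Krt8+/+ AECs past the threshold (edgeR adjusted p = 0.0379), and beside Krt5, Krt7, and Krt17 as given above it changed no other call of a member.

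Differences near 0 changed sign. Krt19 at day 0 was 0.0032 (log2) with no filter, 0.0044 with the replicate block, and 0.016 from the libraries compared alone. Krt80 at day 7 was -0.0036 with DESeq2 size factors, -0.0036 with DESeq2, and -0.00077 with no filter. Without 1 replicate, Krt19 ranged from -0.054 to 0.044 at day 0, -0.028 to 0.28 at day 3, and -0.072 to 0.018 over days 1 to 7. Krt23 ranged from -0.15 to 0.087 at day 1, -0.20 to 0.25 at day 3, -0.020 to 0.33 at day 7, and -0.088 to 0.25 over days 1 to 7. Krt17 ranged from -0.42 to 0.64, -0.22 to 0.94, -0.14 to 0.87, and -0.22 to 0.87 in the same comparisons. Krt80 ranged from -0.14 to 0.17 at day 3, -0.17 to 0.22 at day 7, and -0.049 to 0.14 over days 1 to 7. Krt14 ranged from -0.59 to 0.90 at day 7 and -0.019 to 0.98 over days 1 to 7. Krt5 at day 1 ranged from -0.083 to 0.29, Krt18 at day 3 from -0.077 to 0.30, Krt20 at day 3 from -0.049 to 1.28, and Krt7 at day 7 from -0.061 to 0.21. The cause was not tested.

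Gene length moved the sums. The coding sequence was added after seeing the data. On the longest transcript, the ratio of type II to type I in Krt8+/+ AECs was 0.617 at day 0 and 0.905 at day 7, and in Krt8-/- AECs 0.122, 0.236, 0.327, and 0.416 on days 0, 1, 3, and 7. On the coding sequence it was 0.810, 1.23, 1.40, and 1.41 in Krt8+/+ and 0.267, 0.559, 0.795, and 1.03 in Krt8-/- AECs. The summed Krt7, Krt80, and Krt5 on the longest transcript was 49.7, 431, 580.5, and 916 CPM per kb in Krt8+/+ and 57.7, 486, 796, and 969 in Krt8-/- AECs. On the coding sequence it was 148, 1280, 1730, and 2733 in Krt8+/+ and 171, 1443, 2372, and 2891 in Krt8-/- AECs. The rise as a percent of the Krt8 lost was 3.15%, 3.37%, and 14.3% on the longest transcript and 6.91%, 7.53%, and 32.0% on the coding sequence on days 0, 1, and 3. On day 7 it was 0.931% ± 9.66 on the longest transcript and 2.09% ± 21.6 on the coding sequence (SD, n = 3). At day 3 the replicates ranged from 9.97% to 54.0% on the coding sequence.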
